A study of Mus musculus with 18 samples.

Results

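Gene expression in the midbrain of saline-treated mice was compared with expression in the frontal cortex of the same treatment group. The arrays were chosen by their titles, which name the region and mark the saline animals as controls: 3 midbrain and 3 frontal cortex arrays, 6 of the 18 arrays in the series. The study assigned male C57BL/6J mice aged 14 weeks at random to MPTP or to saline, with 3 animals in each group, and profiled frontal cortex, striatum and midbrain on Affymetrix expression arrays. MPTP is a compound whose metabolite is toxic to dopaminergic neurons, and its group received 30 mg/kg by intraperitoneal injection once daily for 5 days, with tissue taken 4 days after the last injection. Both groups compared here received intraperitoneal saline and no MPTP, their labels name no mutant allele or transgene, and no MPTP array entered a region mean or a difference below. MPTP arrays entered only the choice of the probe set that stands for a gene, the one brightest over all 18 arrays, and an alternative estimate of the spread. Each array carried RNA of dissected tissue, in which many cell types are mixed, and the borders of the dissections are not described in the labels. The labels call the 3 arrays of a group biological replicates. The p-values set a difference against a spread that limma, the test used, moderates with that of other genes of similar level. The 6 arrays leave 4 degrees of freedom per gene, and moderation raises them to a median of 36.6. Where the arrays of a gene are uneven, its printed SE and p-value can understate its own spread.

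The midbrain holds the dopaminergic neurons of the substantia nigra and ventral tegmental area, which make dopamine with tyrosine hydroxylase and aromatic amino acid decarboxylase, load it into vesicles with a monoamine transporter and take it up again with the dopamine transporter. It also holds serotonergic raphe neurons, glutamatergic neurons that use the vesicular transporter VGLUT2, GABAergic and glycinergic neurons, and dense myelinated tracts. The frontal cortex is a layered sheet of pyramidal neurons that use VGLUT1 and carry many dendritic spines, mixed with GABAergic interneurons that are born in the ventral forebrain.

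Values are log2 units, so that a difference of 1 is a doubling of the signal on the linear scale. Each gene is represented by 1 probe set, and 11594 of 18194 genes were tested, those whose mean in at least 1 of the regions reached 5.17, the median of all probe set values on the 6 arrays. A gene was called where limma's adjusted p (Benjamini-Hochberg over all tested genes) was under 0.05. Where every array of a region lay below 5.17, the fitted difference has no exact size, so its lower limit stands beside it ("at least"), the distance of the other region's mean from 5.17. Values of such genes without an array are fitted in the same way, and list medians are of fitted differences, with the median over limits beside them where it differs. In bulk tissue, a lower value can come from fewer cells of a type or from less RNA per cell, and these cannot be told apart.

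The arrays matched their labels at the defining genes of both regions. Th, Slc6a3, Slc18a2 and Ddc, which define dopaminergic neurons, were higher on all 3 midbrain arrays than on any cortical array, and Slc17a7, Neurod6, Tbr1 and Emx1, which define cortical glutamatergic neurons, were higher on all 3 cortical arrays. Pitx3, a dopaminergic transcription factor, lay below 5.17 on every array, at 4.37, 4.35 and 4.22 in midbrain and 4.07, 4.36 and 4.14 in cortex. Correlations over all probe sets were 0.991 to 0.9961 within a region and 0.967 to 0.972 between regions. Replicate 2 of both regions had a narrower spread of values, with interquartile ranges of 3.38 in cortex and 3.37 in midbrain against 3.59 to 3.61 on the other 4 arrays.

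Single arrays stood apart at genes known from tissue next to the dissected regions or, for raphe genes, from neurons that the midbrain also holds. These genes were listed after the data were seen. On cortical replicate 1, genes known from the olfactory bulb were high: S100a5 measured 7.77, 4.46 and 4.03 on the 3 cortical arrays and Cdhr1 measured 7.21, 4.85 and 4.58. The mean of 9 olfactory bulb genes was 6.10 on that array against 4.68 and 4.58 on the others, while Tbx21 lay below 5.17 on all of them and Omp passed it on replicate 1 alone, at 5.27. On midbrain replicate 1, genes known from thalamus and hypothalamus were high, such as Prkcd at 9.40, 7.07 and 7.02 and Pmch, melanin-concentrating hormone, at 7.48, 5.64 and 5.49 on the 3 midbrain arrays. The mean of 12 such genes was 7.51, 5.94 and 6.15, but Hcrt stayed below 5.17 on each and Tcf7l2 was lowest on replicate 1, at 6.23, 6.96 and 6.37. Genes known from raphe, hindbrain and cerebellum went the other way: Pcp2, a gene of Purkinje cells, measured 4.07, 6.27 and 8.61, and the mean of 11 such genes was 4.41, 5.29 and 5.93 on midbrain replicates 1, 2 and 3. The hindbrain genes Hoxa2, Hoxb2 and Hoxb3 were below 5.17 on all 6 arrays. The part of neighbouring tissue in the differences between regions was not tested. A value without 1 array stands beside each gene of these lists whose difference is given below. For Tph2, Slc6a4 and Slc6a5 that array is their lowest, midbrain replicate 1, and not replicate 3, on which they were highest. Leaving out their lowest midbrain array can only raise a difference, so for these genes the value is no check on replicate 3.

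**Figure D1:**
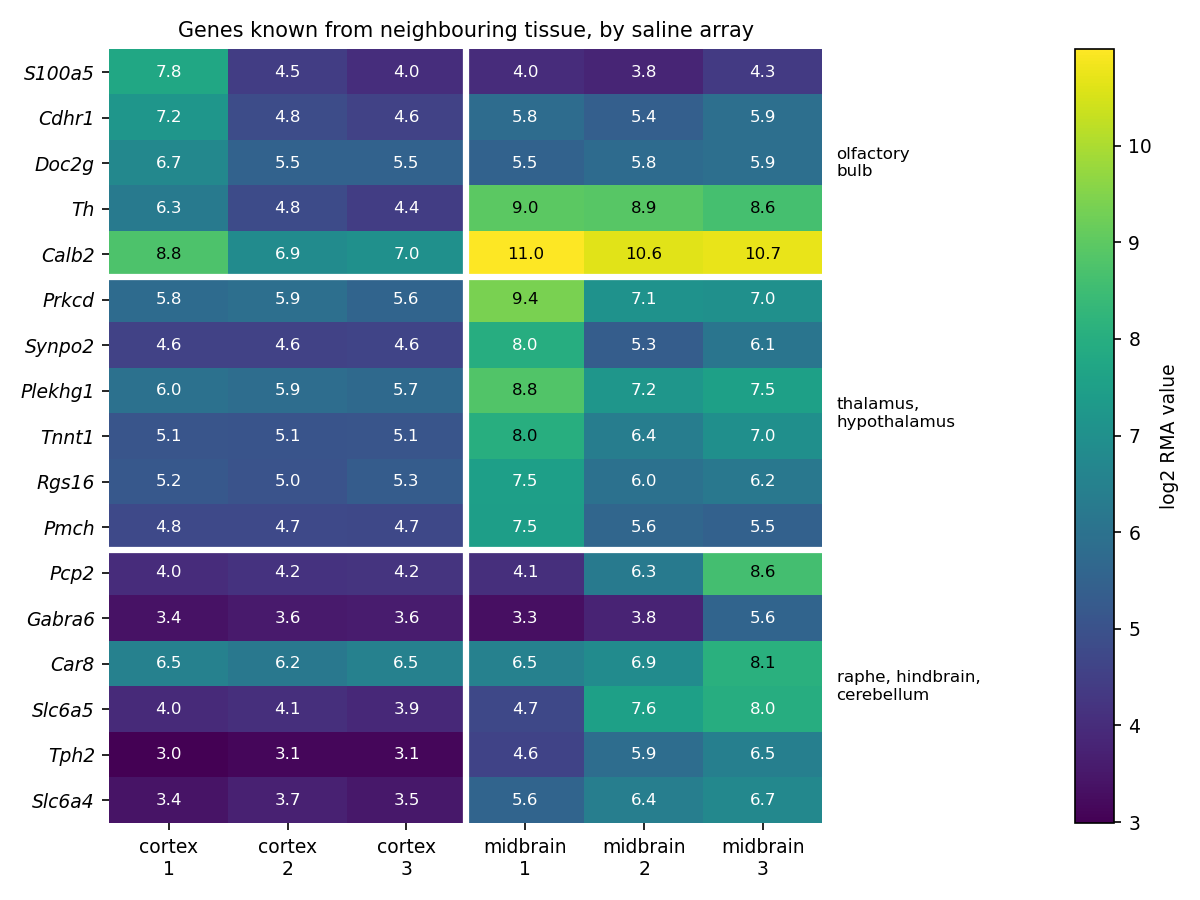
Level (log2 RMA value, printed in each cell and as colour) of selected genes known from olfactory bulb, thalamus and hypothalamus, or raphe, hindbrain and cerebellum, on the 3 cortical and 3 midbrain saline arrays. Not all members of the lists are drawn. Those left out include Tbx21, Tcf7l2, Hcrt, Hoxa2, Hoxb2 and Hoxb3, which did not follow the pattern of their list. Cortical replicate 1 stands out for S100a5 and Cdhr1, midbrain replicate 1 for Prkcd and Pmch, and Pcp2 runs from 4.07 on midbrain replicate 1 to 8.61 on replicate 3.

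The regions differed at a large share of genes. Of the 11594 tested genes, 5198 were called, which is 44.8%, with 2815 higher in midbrain (24.3%) and 2383 lower (20.6%). Most called differences were small, since 3948 were under 1 log2 unit and their median size over all called genes was 0.60. A difference of at least 1 was called for 1250 genes (10.8%), 603 higher in midbrain (5.2%) and 647 lower (5.58%), and a difference of at least 2 for 119 higher and 163 lower. The values of the 2 regions did not overlap at 6095 genes, 52.6% of those tested. The median difference over all tested genes was 0.02, so the gene lists below are read against a background centred near 0. The lists were chosen with earlier results of these data known. Their counts and medians therefore describe the listed members and are no test of a gene class. Since 24.3% of all tested genes were called higher and 20.6% lower, calls in both directions do not by themselves set a list apart. When every array was centred on its own median, 2671 genes were called higher and 2726 lower, which moved the share called higher from 54.2% to 49.5% of calls. The median within-region standard deviation was 0.157 in midbrain and 0.103 in cortex.

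**Figure D2:**
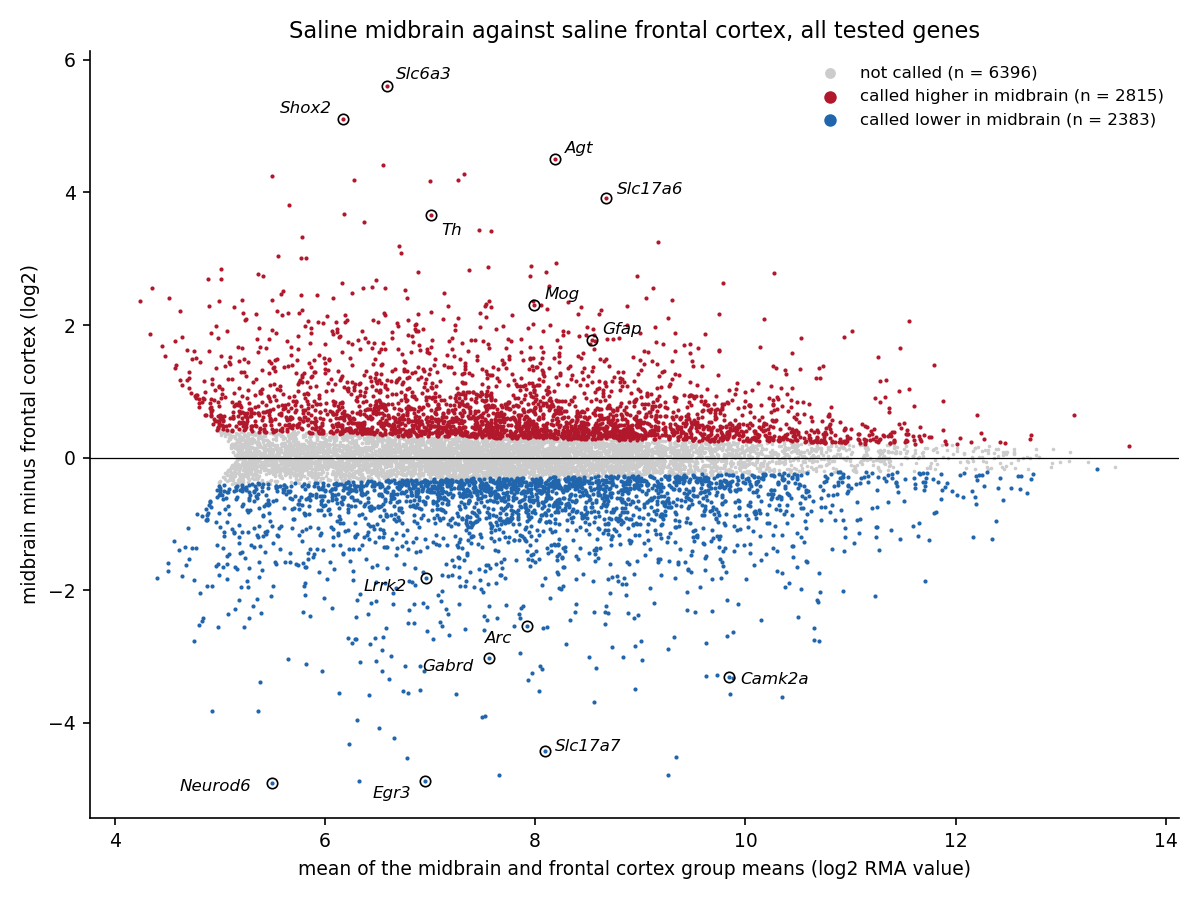
Midbrain minus cortex difference (log2) against the mean of the 2 region means (log2 RMA value) for the 11594 tested genes, with 2815 genes called higher in midbrain in red, 2383 called lower in blue and the rest in grey. Ringed genes run from Slc6a3 at 5.61 to Neurod6 at -4.91.

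The 15 largest called differences in each direction, by fitted value, are given by name, passing over 1 gene higher in midbrain that has only a clone name. Those higher in midbrain were Slc6a3 (5.61, at least 4.23), Shox2 (5.10, at least 3.55), Agt (4.50), Ddc (4.28), Mab21l1 (4.25, at least 2.45), Baiap3 (4.19), Dlk1 (4.19, at least 3.20), Klk6 (4.18), Slc17a6 (3.91), Igsf1 (3.80, at least 2.40), Sncg (3.68, at least 2.85), Th (3.67), Slc18a2 (3.56, at least 2.99), Patj (3.43) and Cartpt (3.43). Those lower were Neurod6 (-4.91, lower by at least 2.78), Crym (-4.88, lower by at least 3.60), Egr3 (-4.88, lower by at least 4.22), Ddn (-4.79), Itpka (-4.78), Krt12 (-4.52, lower by at least 3.88), Kalrn (-4.52), Slc17a7 (-4.42), Kcnv1 (-4.32, lower by at least 3.22), Mlip (-4.23, lower by at least 3.60), Myl4 (-4.08, lower by at least 3.38), Rasl10a (-3.96, lower by at least 3.12), Icam5 (-3.91), Chrm1 (-3.89) and Fezf2 (-3.83, lower by at least 2.11). The 2 regions did not overlap at any of these 30 genes, which were picked for the size of their differences, nor at 52.6% of all tested genes. Of 24 further probe sets for them, 23 had the same sign, but not always the same size: the other probe set of Egr3 differed by -0.40, and the others of Kalrn, a guanine nucleotide exchange factor of dendritic spines, by -0.03 to -2.18. As means over all their probe sets, Ddc differed by 2.29, Patj by 1.84, Igsf1 by 1.42, Egr3 by -2.64, Mlip by -2.15, Myl4 by -2.14 and Kalrn by -1.37.

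**Figure D3:**
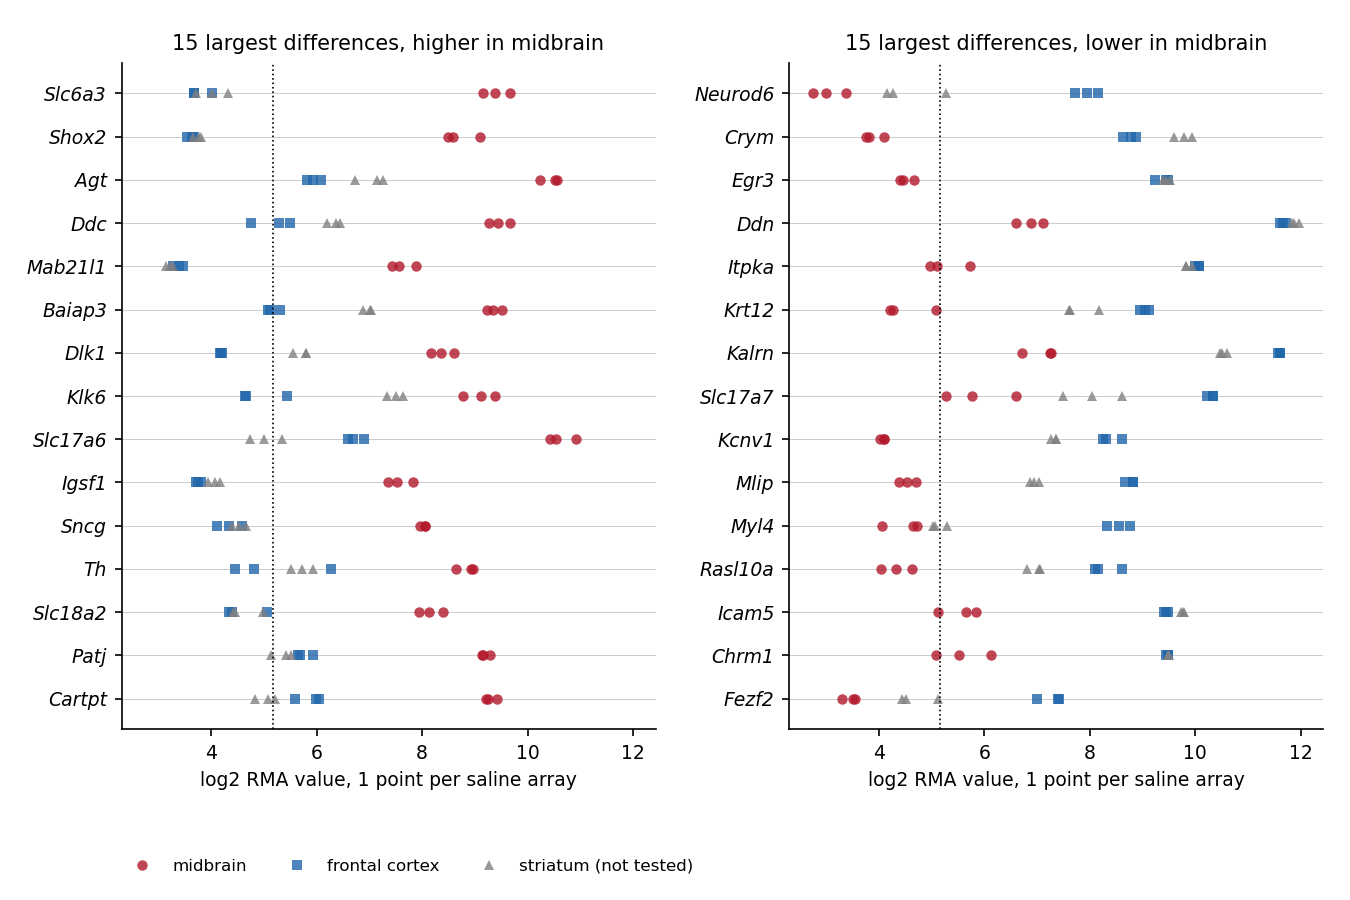
Log2 RMA value on each saline array for the 15 largest called differences higher in midbrain (left) and lower (right), with midbrain as circles, cortex as squares and striatum, which entered no test, as triangles. The dotted line marks 5.17, and midbrain and cortex are separate at all 30 genes, which were picked for the size of their differences.

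Dopaminergic genes were higher in midbrain. Of the 14 tested genes in a list of 22, 12 were called higher and none lower, with a median difference of 2.26 (1.72 over limits). The dopamine transporter gene Slc6a3 measured 9.67, 9.38 and 9.15 on the midbrain arrays and 4.01, 3.68 and 3.67 on the cortical ones, all of the latter below 5.17, so that its difference of 5.61 (SE 0.15, adjusted p = 2.81e-27) is at least 4.23. Ddc, the decarboxylase shared by dopamine and serotonin synthesis, measured 9.67, 9.43 and 9.27 in midbrain and 5.29, 4.76 and 5.50 in cortex, a difference of 4.28 (SE 0.15, adjusted p = 7.2e-24), while its dimmer probe set, below 5.17 in both regions, differed by 0.30. Slc18a2, the vesicular monoamine transporter, measured 8.39, 8.13 and 7.94 against 5.06, 4.39 and 4.33, with a difference of 3.56 (SE 0.16, adjusted p = 3.03e-20) that is at least 2.99. The 3 genes separated the regions on every array, with no array of one region near the other.

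Th, tyrosine hydroxylase, was the enzyme gene with the least even cortical values. It measured 8.97, 8.92 and 8.64 in midbrain and 6.28, 4.81 and 4.44 in cortex, where replicate 1, the array with high olfactory bulb genes, was more than 1 unit above the others. The difference was 3.67 (SE 0.23, adjusted p = 2.12e-16), a 12.7-fold ratio, and 4.22 without cortical replicate 1. Gch1, which makes the cofactor of Th, was near the filter value in midbrain at 5.02, 5.37 and 5.45 and below it in cortex at 3.79, 3.87 and 3.98, a difference of 1.40 (SE 0.18, adjusted p = 3.26e-08) that is at least 0.11.

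The other dopaminergic members called higher were the imprinted ligand gene Dlk1 (4.19, at least 3.20), the retinaldehyde dehydrogenase Aldh1a1 (2.64), the GDNF receptor kinase Ret (2.47, at least 1.65), the D2 receptor Drd2 (2.04, at least 1.79), the nicotinic subunit Chrna6 (1.67, at least 1.34) and the transcription factors Foxa1 (1.83, at least 0.39) and En2 (1.51, at least 0.36). Aldh1a1 was also well expressed in cortex, at 8.47, 8.50 and 8.43 against 11.18, 11.02 and 11.11 in midbrain. Transcription factors of dopaminergic neurons did not all follow. Nr4a2 measured 8.49, 8.05 and 7.96 in midbrain and 8.28, 8.03 and 8.47 in cortex, with overlapping regions and a difference of -0.09 (SE 0.13, adjusted p = 0.611) that was -0.35 (adjusted p = 0.034) as the mean of its probe sets, and Sox6 differed by 0.20 (SE 0.14, adjusted p = 0.244). En1, Foxa2, Lmx1a, Lmx1b, Pitx3, Chrnb3 and Aldh1a7 did not reach the filter value.

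Th and Slc18a2 are printed here because they are the 2 dopaminergic genes whose promoter window holds a cAMP response element, the full palindrome TGACGTCA, which reads the same on both strands. Each window runs from 250 bases before to 50 bases after the transcription start, from RefSeq on GRCm38.p6, and the element is in capitals. The Th window is chr7:142899946-142900245 on the minus strand, with the element at positions -45 to -38. The Slc18a2 window is chr19:59260628-59260927 on the plus strand, with the element across the start, from position -4 to 4.
Th: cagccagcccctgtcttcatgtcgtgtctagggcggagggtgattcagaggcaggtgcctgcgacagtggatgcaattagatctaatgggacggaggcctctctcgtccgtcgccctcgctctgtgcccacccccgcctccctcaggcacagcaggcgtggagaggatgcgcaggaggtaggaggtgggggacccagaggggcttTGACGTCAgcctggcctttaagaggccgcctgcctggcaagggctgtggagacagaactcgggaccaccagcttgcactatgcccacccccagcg
Slc18a2: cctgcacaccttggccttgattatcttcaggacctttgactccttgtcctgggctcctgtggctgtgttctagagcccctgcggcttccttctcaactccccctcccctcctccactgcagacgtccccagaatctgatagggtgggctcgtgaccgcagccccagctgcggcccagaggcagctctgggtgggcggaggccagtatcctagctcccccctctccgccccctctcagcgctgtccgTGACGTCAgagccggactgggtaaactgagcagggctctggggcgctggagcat
The promoter table held 27 windows of 18 dopaminergic genes, and the element was in 2 of these windows (7.41%), against 588 of all 32851 windows of this length (1.79%). It was in 1 of 28 windows of postsynaptic density genes (3.57%), that of Neurl1a, and in none of 30 windows of myelin genes or 30 of cortical glutamatergic genes. A match describes the letters only, and no binding was measured.

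Serotonergic genes were higher in midbrain too, but unevenly across its arrays. Of 10 tested genes, 9 were called higher, with a median of 1.98 (0.90 over limits), although Ddc, Slc18a2 and Gch1 are shared with dopaminergic neurons. Tph2, the enzyme that starts serotonin synthesis in neurons, measured 4.59, 5.87 and 6.45 in midbrain and 2.99, 3.13 and 3.13 in cortex, a difference of 2.55 (SE 0.26, adjusted p = 9.61e-11) that is at least 0.47. Slc6a4, the serotonin transporter, measured 5.57, 6.42 and 6.73 against 3.41, 3.72 and 3.51, a difference of 2.69 (SE 0.21, adjusted p = 6.48e-14) that is at least 1.07. Both genes were lowest on midbrain replicate 1, the array with high thalamic genes, and highest on replicate 3. Leaving out replicate 1, their lowest array, could only raise their fitted differences, which became 3.08 and 3.02. Leaving out replicate 3, their highest, lowers them, and those values are not given. Htr1b (1.27), the transcription factor Gata2 (0.74) and Maob (0.46), which breaks down monoamines, were also called higher. Of 3 tested noradrenergic genes none was called by limma, 0 had an unadjusted p under 0.05, and 1 was called lower without midbrain replicate 3. Dbh, which turns dopamine into noradrenaline, measured 5.41, 5.38 and 5.28 in midbrain and 5.53, 5.58 and 5.55 in cortex.

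Genes of excitatory neurons of midbrain and thalamus were higher in midbrain. All 12 tested genes of a list of 19 were called higher in midbrain, with a median of 2.15 (1.98 over limits). Slc17a6, which encodes VGLUT2, measured 10.92, 10.43 and 10.54 in midbrain and 6.89, 6.59 and 6.68 in cortex, a difference of 3.91 (SE 0.13, adjusted p = 5.21e-25). Its cortical partner Slc17a7, which encodes VGLUT1, had the opposite pattern, at 5.76, 5.27 and 6.60 in midbrain and 10.33, 10.23 and 10.34 in cortex, a difference of -4.42 (SE 0.17, adjusted p = 2.22e-22). Shox2, a homeobox gene, measured 9.10, 8.48 and 8.58 in midbrain and 3.68, 3.63 and 3.55 in cortex, so that its difference of 5.10 (SE 0.16, adjusted p = 1.56e-25) is at least 3.55.

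Within that list, Calb2, the calcium buffer calretinin, measured 11.00, 10.64 and 10.74 in midbrain and 8.75, 6.86 and 7.01 in cortex, and its difference was 3.25 (SE 0.23, adjusted p = 7.18e-15). Its cortical replicate 1 was the high array, and the difference was 3.86 without it. Prkcd, a kinase of thalamic relay neurons, differed by 2.07 (SE 0.29, adjusted p = 1.99e-07), and by 1.29 (adjusted p = 9.99e-14) without midbrain replicate 1, and with robust variance estimation it was not called (adjusted p = 0.112). Synuclein gamma, Sncg (3.68, at least 2.85), and the transcription factors Ebf3 (3.33, at least 2.28), Ebf1 (2.23, at least 1.73), Tcf7l2 (1.76, at least 1.35) and Lhx9 (1.54) were higher with no overlap of the regions. Tcf7l2 differed by 1.90 without midbrain replicate 1.

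Inhibitory transmission of the brainstem type was likewise higher in midbrain. In the glycine list, 6 of 7 tested genes were called higher, with a median of 1.97 (1.20 over limits). Slc6a5, the glycine transporter of glycinergic terminals, measured 4.72, 7.55 and 7.97 in midbrain and 3.96, 4.07 and 3.90 in cortex, a difference of 2.77 (SE 0.37, adjusted p = 7.4e-08) that is at least 1.58. Leaving out midbrain replicate 1, its lowest array, could only raise the fitted difference, which became 3.79. Leaving out replicate 3, its highest, lowers it, and that value is not given. Slc6a5 was not called with robust variance estimation (adjusted p = 0.104). The receptor subunits Glra1 (2.41, at least 0.55), Glra3 (2.03, at least 1.83) and Glra2 (1.14) and the glial transporter Slc6a9 (1.97) were higher, while the shared subunit Glrb differed by 0.03 (SE 0.11, adjusted p = 0.875). Glra1 was highest on midbrain replicate 3 and differed by 2.10 without it. Of 7 tested transcription factors of brainstem GABAergic neurons, 6 were called higher, led by Gata3 (2.84, at least 1.26), Tal1 (2.16, at least 1.25) and Nkx2-2 (2.08), and their cofactor Zfpm1 was called lower (-1.34).

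Patterning genes differed by the territory they are known from. Of 15 tested midbrain and diencephalon patterning genes, 14 were called higher in midbrain, and Meis2 was called lower (-0.67), with a median of 1.83 (0.79 over limits, which 11 of the 15 have). Mab21l1 measured 7.44, 7.56 and 7.87 in midbrain and 3.27, 3.45 and 3.38 in cortex, and Otx2, a homeobox gene of the midbrain, measured 5.71, 5.16 and 5.41 and 2.80, 3.19 and 3.17. The Iroquois genes Irx2 (3.04, at least 1.91), Irx3 (2.70, at least 1.19), Irx5 (1.54, at least 0.08) and Irx1 (1.33, at least 0.89) were all called higher. Of 11 tested forebrain patterning genes, 9 were called lower in midbrain and 1 higher, with a median of -1.32. The lower ones included Fezf2 (-3.83, lower by at least 2.11), Tbr1 (-3.82, lower by at least 1.66), Dlx1 (-3.04, lower by at least 2.004) and Lhx2 (-2.22), and the higher one was Nr2f2 (1.18). Only 3 of 19 Hox genes on the array, which mark hindbrain and spinal cord, were tested. None was called by limma, and none had an unadjusted p under 0.05; without midbrain replicate 1, 1 was called higher.

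Genes of cortical glutamatergic neurons were lower in midbrain. Of 23 tested genes, 21 were called lower and none higher, 17 of them by at least 1 unit, and the median was -1.85 (-1.66 over limits). Neurod6 measured 2.76, 2.99 and 3.37 in midbrain, all below 5.17, and 8.16, 7.73 and 7.96 in cortex, so that its difference of -4.91 (SE 0.17, adjusted p = 6.26e-24) is lower by at least 2.78. Fezf2, which specifies deep-layer projection neurons, measured 3.30, 3.51 and 3.54 and 7.42, 7.00 and 7.41. Tbr1, a transcription factor of layer 6, measured 2.95, 3.26 and 2.83 and 6.97, 6.99 and 6.54. The regions were separate at each of these 3 genes, and the midbrain values were all below the filter value.

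Other cortical genes remained well expressed in midbrain while being lower there. Camk2a, the calmodulin-dependent kinase of excitatory synapses, measured 8.48, 7.92 and 8.17 in midbrain and 11.50, 11.54 and 11.47 in cortex, a difference of -3.31 (SE 0.11, adjusted p = 2.74e-24), and Mef2c (-3.61), Lmo4 (-2.79) and Nrgn (-2.75) followed. At the other end, Lmo3 was lower by only -0.52 (SE 0.12, adjusted p = 0.000632). Cux1, a gene of upper-layer neurons, was not called on its brightest probe set (0.16, SE 0.12, adjusted p = 0.297), while 4 of its 8 others were lower at an unadjusted p under 0.05, by as much as 0.85 units.

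**Figure D4:**
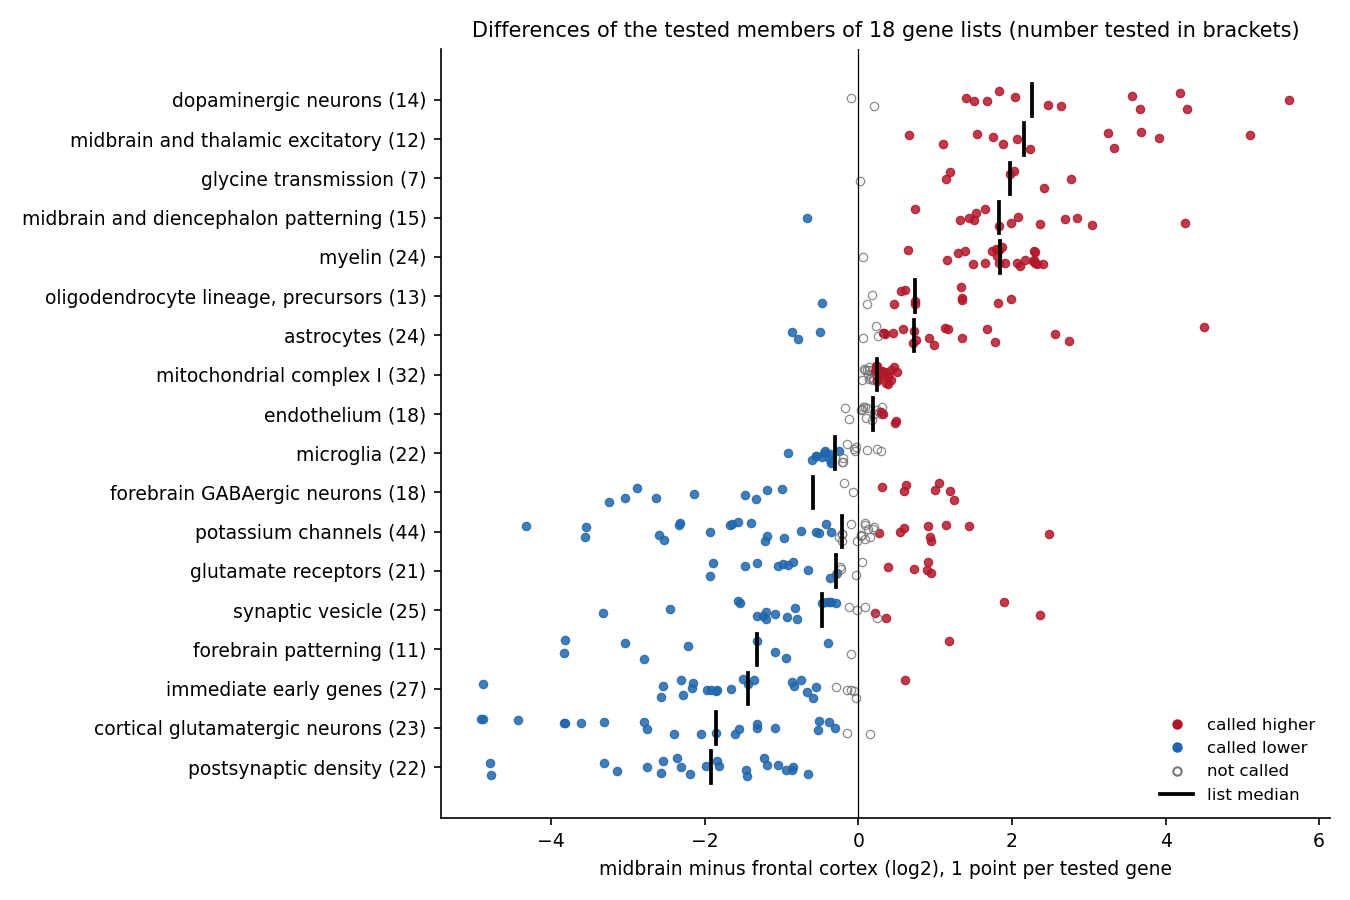
Midbrain minus cortex difference (log2) for each tested member of 18 gene lists, filled red where called higher, blue where called lower and open where not called, with a bar at the list median. Medians run from 2.26 for dopaminergic genes to -1.92 for postsynaptic density genes, and lists such as the potassium channels hold calls in both directions.

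Postsynaptic genes were lower in midbrain. All 22 tested genes of the postsynaptic density list, of 28 listed, were called lower, 18 of them by at least 1 unit, with a median of -1.92. A second probe set of Iqsec2, whose brighter one was called lower (-1.99), went the other way, by 1.07, and the mean of its probe sets differed by -0.45. Homer1, Arc, Nrgn and Camk2a are shared with other lists described here. Ddn, dendrin, a protein of dendrites and spines, measured 6.88, 6.61 and 7.12 in midbrain and 11.66, 11.72 and 11.60 in cortex, a difference of -4.79 (SE 0.12, adjusted p = 3.65e-28) and a 27.7-fold ratio. Itpka, a kinase bound to spine actin, measured 5.10, 4.97 and 5.72 in midbrain and 9.99, 10.07 and 10.08 in cortex, a difference of -4.78 (SE 0.14, adjusted p = 1.03e-25). Synpo, the spine apparatus protein, differed by -3.14, Dlgap2 by -2.57 and Baiap2 by -2.35. The scaffolds present at most excitatory synapses differed less, with Dlg4, PSD-95, at -1.04, Shank3 at -0.85 and Dlg2 at -0.86.

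Presynaptic genes were less uniform. Of 25 tested synaptic vesicle and release genes, 17 were called lower in midbrain and 4 higher, with a median of -0.47. Stx1a, a syntaxin of the fusion machinery, measured 8.45, 8.06 and 8.14 in midbrain and 11.60, 11.56 and 11.46 in cortex, a difference of -3.33 (SE 0.11, adjusted p = 5.64e-25). Paralogs took opposite sides: Syt2 was higher (2.37, SE 0.12, adjusted p = 1.16e-18) and Syt1 lower (-1.20), Vamp1 higher (1.90, SE 0.09, adjusted p = 3.25e-20) and Vamp2 lower (-0.80), Sv2a higher (0.36) and Sv2b lower (-2.45). These are calcium sensors, v-SNAREs and vesicle glycoproteins.

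Immediate early genes, which neurons switch on briefly after activity, were lower in midbrain. Of 27 tested genes, 21 were called lower and 1 higher, 15 of the former by at least 1 unit, with a median of -1.44 (-1.12 over limits). Egr3 measured 4.41, 4.47 and 4.66 in midbrain, all below 5.17, and 9.45, 9.24 and 9.48 in cortex, a difference of -4.88 (SE 0.14, adjusted p = 8.12e-27) that is lower by at least 4.22. Arc measured 6.42, 6.67 and 6.86 in midbrain and 8.59, 9.27 and 9.72 in cortex, where its range was over 1 unit, and differed by -2.54 (SE 0.17, adjusted p = 8.41e-16). Homer1 (-2.31, and -4.76 on another probe set), Egr2 (-2.28, lower by at least 1.12), Junb (-1.91), Nr4a1 (-1.84) and Npas4 (-1.44, lower by at least 1.22) were also called lower.

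Fos did not follow the Egr genes. It measured 8.54, 8.82 and 9.35 in midbrain and 9.04, 8.90 and 9.19 in cortex, the regions overlapped, and the difference was -0.14 (SE 0.14, adjusted p = 0.434), although it was -0.36 (adjusted p = 0.0261) without midbrain replicate 3. Jun (-0.30, SE 0.13, adjusted p = 0.0587) was not called either, but was with the replicate number as a block (adjusted p = 0.00999) and without midbrain replicate 1 (-0.36, adjusted p = 0.0369), and Gadd45g, a stress-inducible gene, was the one called higher (0.61, SE 0.14, adjusted p = 0.000419). Tissue of all animals was taken after brief anaesthesia and decapitation, and the part of handling in these levels was not tested. The cAMP response element was in 2 of the 36 promoter windows of 24 immediate early genes (5.56%), those of Btg2 and Dusp1. Dusp1, a phosphatase of MAP kinases that was called lower (-0.67, though not with the spread of all 18 arrays, adjusted p = 0.0979), is printed as a counterpart to Th, since the regions differ at it in the other direction. Its window is chr17:26508423-26508722 on the minus strand, with the element in capitals at positions -143 to -136.
Dusp1: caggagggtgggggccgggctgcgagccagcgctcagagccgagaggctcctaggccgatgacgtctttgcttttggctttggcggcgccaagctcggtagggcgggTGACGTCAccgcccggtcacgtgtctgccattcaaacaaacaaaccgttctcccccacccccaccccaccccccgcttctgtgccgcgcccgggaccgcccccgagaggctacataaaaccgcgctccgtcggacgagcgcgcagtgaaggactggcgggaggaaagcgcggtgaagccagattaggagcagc

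GABAergic genes went both ways. Of 18 tested genes of forebrain GABAergic neurons, 9 were called lower in midbrain and 7 higher, with a median of -0.59 (-0.40 over limits). The transmitter genes common to all GABAergic neurons were higher: Gad2, a synthetic enzyme (1.25), Slc32a1, the vesicular transporter (1.20, but 0.27 and not called as the mean of its probe sets), and Gad1 (0.31, SE 0.10, adjusted p = 0.00988). Without cortical replicate 3, Gad1 differed by 0.25 (adjusted p = 0.0925). Several genes of particular cortical interneurons were lower, though not all. Vip, a peptide of one such class, measured 5.84, 6.76 and 6.45 in midbrain and 9.65, 9.52 and 9.61 in cortex, a difference of -3.24 (SE 0.15, adjusted p = 2.44e-20), and Npy measured 7.32, 8.06 and 8.10 and 10.65, 10.70 and 10.76, a difference of -2.88 (SE 0.13, adjusted p = 4.16e-20). Dlx1 (-3.04, lower by at least 2.004), Lamp5 (-2.64), Lhx6 (-2.14, lower by at least 1.26) and Sst (-0.99) were also called lower. Pvalb, parvalbumin, a marker of fast-spiking neurons, was higher, at 10.64, 11.07 and 11.19 against 9.86, 9.85 and 10.04 (1.05, SE 0.11, adjusted p = 2.51e-10). Further probe sets of the interneuron genes Adarb2 and Nxph1 were higher too, by up to 0.81 and 0.45. They had the same sign as the probe set that stands for the gene.

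Neuropeptide genes also went both ways, with 6 of 18 tested called higher and 8 lower. Together these were 77.8%, against 44.8% of all tested genes. Cartpt measured 9.42, 9.20 and 9.26 in midbrain and 5.99, 5.58 and 6.03 in cortex, a difference of 3.43 (SE 0.13, adjusted p = 1.84e-22), and Nts, neurotensin (2.38, at least 1.52), Pnoc (1.34) and Tac1, the substance P precursor (1.30), were higher. Cck, cholecystokinin, was lower (-2.77), as were Tac2 (-1.61) and Cort (-1.33). Pmch, a hypothalamic peptide gene, was called higher at 1.46 (SE 0.26, adjusted p = 1.47e-05), at least 1.03, with values of 7.48, 5.64 and 5.49 in midbrain and 4.76, 4.74 and 4.71 in cortex. Without midbrain replicate 1 its fitted difference was 0.82 (adjusted p = 8.65e-05), and that of Tac2 was -2.17. With robust variance estimation Pmch (adjusted p = 0.153), Tac2 (0.0923), Pcp2 (0.272) and Car8 (0.299), all 4 uneven among the midbrain arrays, were not called. Of 6 tested cerebellar genes 1 was called lower, by at least 1 unit, and the lowest difference in that list was -1.56. The 4 called higher were Cbln1 (2.83), Pcp2 (2.19, at least 1.15), Zic1 (1.65) and Car8 (0.75), and without midbrain replicate 3 only 2 were called higher. Pcp2 then did not reach the filter value, and Car8 differed by 0.29 (adjusted p = 0.161).

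Receptor genes differed by subunit. Of 21 tested glutamate receptor genes, 11 were called lower in midbrain and 5 higher. The NMDA receptor subunits Grin2b (-1.93) and Grin2a (-1.31, lower by at least 0.47) were lower and Grin2d (0.95) and Grin3a (0.91) higher. The AMPA receptor subunits Gria3 (-1.47) and Gria2 (-1.04) were lower and Gria4 higher (0.39). Of 10 tested GABA receptor genes 6 were called lower and 1 higher. Gabrd, the delta subunit of extrasynaptic receptors, measured 6.83, 5.07 and 6.24 in midbrain and 9.06, 9.05 and 9.12 in cortex, a difference of -3.03 (SE 0.21, adjusted p = 5.01e-15) that was -3.42 without midbrain replicate 1, and Gabrg1 was the one called higher (1.26).

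The tested muscarinic and nicotinic receptor genes took opposite sides. Of 12 on the array only 6 were tested, and the muscarinic ones among them were Chrm1 and Chrm3 alone. Chrm1, the M1 muscarinic receptor of forebrain neurons, measured 5.09, 6.13 and 5.53 in midbrain and 9.45, 9.48 and 9.48 in cortex, a difference of -3.89 (SE 0.16, adjusted p = 6.42e-22), and Chrm3 was lower too (-0.95). All 4 nicotinic subunits tested, Chrna6 (1.67, at least 1.34), Chrna4 (0.91), Chrna7 (0.50) and Chrnb2 (0.40), were called higher. Chrnb2 was not called without cortical replicate 3 (0.33) or midbrain replicate 1 (0.27). Of 12 tested receptors for dopamine, serotonin and noradrenaline, 4 were called higher, Htr2c (2.94), Drd2 (2.04, at least 1.79), Htr1b (1.27) and Htr7 (0.58). The 6 called lower included Htr3a (-1.19, lower by at least 0.61), Drd1 (-1.17) and Adra1b (-0.95), and with the mean of all probe sets of a gene in place of 1 probe set, 3 were called lower.

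Potassium channel genes formed the list with the most tested members. Of 44 tested, 20 were called lower in midbrain, 14 of them by at least 1 unit, and 9 higher. Together these were 65.9%, against 44.8% of all tested genes (24.3% higher and 20.6% lower). The share of channel genes called higher was below that of all tested genes. Kcnv1, a silent subunit that modifies other channels, measured 4.09, 4.02 and 4.09 in midbrain and 8.61, 8.31 and 8.25 in cortex, a difference of -4.32 (SE 0.15, adjusted p = 2.44e-24) that is lower by at least 3.22. Kcnf1 (-3.56), the inward rectifier Kcnj4 (-3.54), Kcnh3 (-2.60) and the M-current subunit Kcnq5 (-2.54) were lower. Kcng4 (2.48), Kcnh2 (1.44), Kcnc1 (0.93) and the glial channel Kcnj10 (1.14) were higher. The probe sets of Kcnc1 disagree, one of them at -1.11, and their mean was not called (0.26).

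Myelin genes were higher in midbrain. Of 24 tested genes of mature oligodendrocytes, 23 were called higher and none lower, 22 of them by at least 1 unit, with a median of 1.85. Mog, a protein of the outer myelin sheath, measured 9.22, 9.05 and 9.16 in midbrain and 6.67, 6.78 and 7.06 in cortex, a difference of 2.31 (SE 0.13, adjusted p = 3.87e-18), and Ermn, an oligodendrocyte cytoskeletal protein, measured 10.37, 10.11 and 10.31 and 7.81, 7.53 and 8.22, a difference of 2.41 (SE 0.13, adjusted p = 2.41e-18). Apart from Mbp, the called members ran from Ermn, Gjb1 (2.32), Aspa (2.31) and Mag (2.17) to Cnp (1.39, but 1.84 and 1.82 on its other probe sets) and Car2 (1.15). Mbp, myelin basic protein, differed by 0.65 (SE 0.07, adjusted p = 9.53e-10) and was near the top of the array's range in both regions, at 13.59, 13.38 and 13.39 and 12.78, 12.74 and 12.89. Of its 7 other probe sets 6 were higher, by up to 1.59, and a dimmer one was lower (-0.94). Omg, which neurons also express, was the member not called (0.06, SE 0.10, adjusted p = 0.666).

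Genes of the oligodendrocyte lineage and its precursors were higher by less. Of 13 tested, 10 were called higher and 1 lower, with a median of 0.74. The lineage factors Sox10 (1.36), Olig1 (1.35) and Olig2 (1.34) exceeded the precursor receptor Pdgfra (0.46), and Tnr, tenascin R, was lower (-0.47). Klk6, a protease of oligodendrocytes, was among the largest differences, at 8.78, 9.11 and 9.37 in midbrain and 4.64, 5.43 and 4.66 in cortex.

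Astrocyte genes were mostly higher in midbrain. Of 24 tested, 18 were called higher and 3 lower, with a median of 0.72. Agt, angiotensinogen, measured 10.52, 10.24 and 10.56 in midbrain and 5.81, 6.08 and 5.92 in cortex, a difference of 4.50 (SE 0.12, adjusted p = 7.57e-27) and a 22.7-fold ratio. Slc6a11, the GABA transporter GAT-3, measured 10.44, 10.26 and 10.51 and 7.95, 7.81 and 7.76, a difference of 2.56 (SE 0.11, adjusted p = 4.33e-21). Gfap, the intermediate filament, measured 9.31, 9.28 and 9.70 and 7.78, 7.50 and 7.67 (1.78, SE 0.12, adjusted p = 5.05e-15), and Aqp4, the water channel, differed by 1.67 (SE 0.10, adjusted p = 4.31e-17). The regions did not overlap at any of these 4 genes.

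The glutamate transporters of astrocytes ran against the list. Slc1a3, which encodes GLAST, measured 9.40, 8.94 and 9.52 in midbrain and 10.05, 10.08 and 10.09 in cortex, a difference of -0.79 (SE 0.12, adjusted p = 4.58e-07), and Slc1a2, which encodes GLT-1, differed by -0.50 (SE 0.08, adjusted p = 3.54e-06). Mfge8 was the other member called lower (-0.87). Gja1, a gap junction gene, was higher by 0.58, and Aldoc, which many astrocytes express, by 0.34. Aldoc was not called as the mean of its probe sets (0.11, adjusted p = 0.286), of which the other differed by -0.11.

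Microglial genes were lower in midbrain by small amounts. Of 22 tested, 12 were called lower and none higher, with a median of -0.30 and no difference of 1 unit. Fcrls measured 7.11, 6.74 and 7.17 in midbrain and 7.95, 7.96 and 7.86 in cortex (-0.92, SE 0.13, adjusted p = 2.91e-07), Aif1 differed by -0.61 (SE 0.15, adjusted p = 0.00132) and P2ry12, a purinergic receptor of resting microglia, by -0.56 (SE 0.14, adjusted p = 0.000981). The complement gene C1qa (-0.06, SE 0.11, adjusted p = 0.716) and Cx3cr1 (-0.21, SE 0.12, adjusted p = 0.164), a chemokine receptor, were not called, although Cx3cr1 was with the replicate number as a block (adjusted p = 0.0344). Without cortical replicate 1 only 5 microglial genes were called lower, without cortical replicate 3 also 5, and without replicate 2 of both regions 7, while 1 was called higher without midbrain replicate 2.

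Vessel and covering tissue differed little. Of 18 tested endothelial genes 4 were called higher in midbrain, led by Emcn (0.49) and the glucose transporter Slc2a1 (0.48). That count is close to the 24.3% of all tested genes called higher, and it was 2 without cortical replicate 1, cortical replicate 3 or midbrain replicate 3, and 7 without midbrain replicate 2 or with the replicate number as a block. Cldn5, of tight junctions, differed by 0.21 (SE 0.12, adjusted p = 0.143), and was called without midbrain replicate 2 (0.30, adjusted p = 0.0167) and with the block (adjusted p = 0.0308). Of 11 mural genes 2 were called in each direction, together 36.4%, against 44.8% of all tested genes. Leaving out single arrays gave 1 to 4 mural genes higher and 0 to 2 lower. Of 13 meningeal genes 1 was called higher, Dcn (0.99), under each such fit, and 2 lower, which became 1 to 4. The meningeal genes called in the main fit were 23.1% of those tested. Of 7 tested choroid plexus and ependymal genes 5 were called higher. Ttr, the main choroid plexus transcript, measured 8.18, 7.53 and 7.22 in midbrain and 4.12, 4.96 and 6.16 in cortex, spread over 2 units in cortex, and differed by 2.56 (SE 0.26, adjusted p = 9.68e-11), while the striatal arrays were higher than both, at 10.14, 10.61 and 10.20. The choroid plexus genes Kl and Folr1 were below the filter value.

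Among genes tied to Parkinson's disease and to MPTP metabolism, 5 of 14 tested were called higher and 2 lower, not far from the shares of all tested genes. Lrrk2, a kinase mutated in inherited Parkinson's disease, measured 6.15, 5.73 and 6.29 in midbrain and 7.93, 7.71 and 7.97 in cortex, a difference of -1.82 (SE 0.14, adjusted p = 1.73e-13). Maob, the enzyme that converts MPTP to its toxic form, measured 8.49, 8.29 and 8.22 and 8.02, 7.79 and 7.80 (0.46, SE 0.12, adjusted p = 0.00213), and Maoa measured 8.46, 8.39 and 8.27 and 7.61, 7.73 and 7.55 (0.75, SE 0.12, adjusted p = 2.51e-06). Fbxo7 (0.80) was called higher, and Pink1 was not called (0.18, SE 0.09, adjusted p = 0.129) except without midbrain replicate 2 (0.23, adjusted p = 0.0208) and under 3 other settings. The higher count was 8 under a second quantile normalization, and the lower count was 1 without cortical replicate 1, 2 or 3 or midbrain replicate 3.

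RNA of subunits of complex I of the respiratory chain, the complex that the toxic form of MPTP inhibits, was slightly higher in midbrain. The complex itself and its activity were not measured. Of 32 tested subunit genes, 21 were called higher and none lower, with a median of 0.24. The largest difference was that of Ndufb5, at 11.40, 11.24 and 11.44 in midbrain and 10.82, 10.86 and 10.90 in cortex (0.50, SE 0.09, adjusted p = 9.72e-06), followed by Ndufb8 (0.47) and Ndufa6 (0.43). The count rested on small differences: it was 12 without cortical replicate 1, 11 without cortical replicate 2, 13 without midbrain replicate 3 and 11 without the intensity trend in the variance model. Of 23 tested ribosomal protein genes, 7 were called higher and 1 lower, together 34.8%, against 44.8% of all tested genes (24.3% higher and 20.6% lower). Their median was 0.14, and the higher count was 13 without midbrain replicate 2. The lower one was not called without any array but midbrain replicate 1, when 2 were.

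Calcium-binding proteins, secreted synaptic organizers and regulators of G protein signalling each held members on both sides. Among 16 tested calcium-binding genes, 5 were called higher, led by Calb2 and Cabp7 (2.74), and 9 lower, led by Hpcal4 (-2.56) and hippocalcin, Hpca (-1.57). Together these were 87.5%, against 44.8% of all tested genes. Calb1, calbindin, was lower (-1.17). Of the cerebellins and their relatives, Cbln1 (2.83) and C1ql2 (2.75, at least 1.62) were higher, and C1ql3 (-3.05) and the neuronal pentraxins Nptx1 (-1.72) and Nptx2 (-1.50) lower. Of 16 RGS genes tested, 5 were called higher and 8 lower, among the latter Rgs14 (-2.67) and Rgs4 (-2.15). Together the called RGS genes were 81.25%, against the same 44.8%. Rgs16, called higher (1.37, SE 0.22, adjusted p = 2.03e-06), was highest on midbrain replicate 1 and differed by 0.89 without it, and was not called with robust variance estimation (adjusted p = 0.0633). Of 10 tested neurofilament and axonal cytoskeleton genes 7 were called higher, led by Nefh, the heavy neurofilament, at 10.13, 10.40 and 10.28 against 8.42, 8.29 and 8.46 (1.88, SE 0.11, adjusted p = 2.43e-17).

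For some named genes the mean over all probe sets gave a difference over 1.5 times smaller, with the same sign. It was 1.66 for Slc6a5, 1.28 for Glra3, 1.25 for Prkcd, 0.63 for Htr1b and 0.49 for Tac1. It was 1.19 for Slc6a11, 0.27 for Pdgfra, 0.45 for Dcn and 0.49 for Car8, which was then not called (adjusted p = 0.131). Among genes lower in midbrain it was -1.54 for Gabrd, -1.67 for Synpo, -1.38 for Kcnh3 and -1.42 for Lhx6. For Tcf7l2 it was larger, at 2.93.

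The 3 saline striatal arrays show where striatum lay, as a description with no test. For the 23 called myelin genes the striatal mean was between the other regions every time, and nearer to midbrain for 20; Mog measured 8.21, 8.34 and 8.23 there. For the 22 postsynaptic genes it was nearer to cortex for 20 and above both regions for 11, with Ddn at 11.87, 11.97 and 11.84. For the 21 immediate early genes called lower in midbrain, it was nearer to cortex for 17. Astrocyte genes called higher in midbrain had striatal levels nearer to cortex in 17 of 18 cases, with Gfap at 7.37, 7.74 and 7.52. All 12 microglial genes called lower in midbrain were nearer to cortex, and 11 lay above both regions. Drd2 was far above both, at 10.36, 10.20 and 10.15, and Slc6a3 was below 5.17, at 4.32, 3.70 and 4.01.

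**Figure D5:**
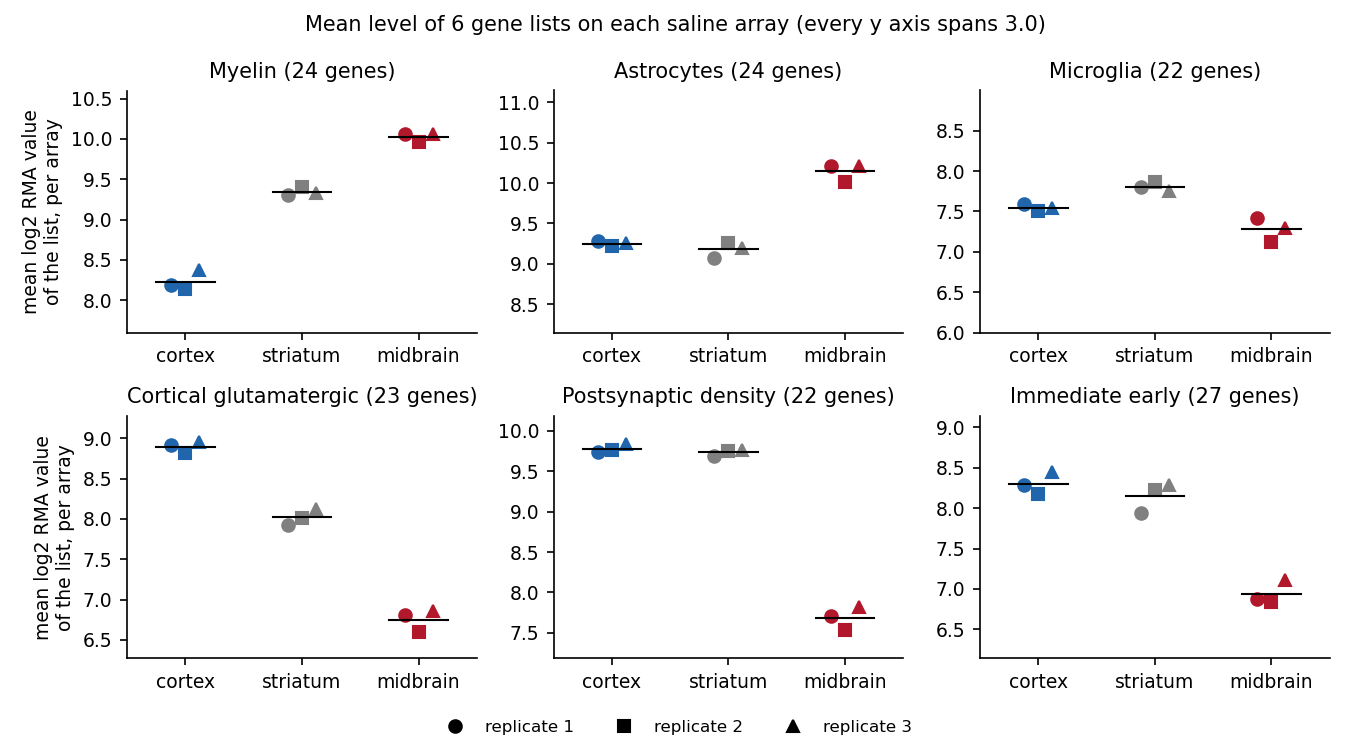
Mean log2 RMA value of the tested members of 6 gene lists on each saline array, by region, with replicates 1, 2 and 3 as circle, square and triangle and the region mean as a bar; each y axis spans 3.0 units. Myelin genes step up from cortex through striatum to midbrain, while postsynaptic and immediate early genes are level in cortex and striatum and lower in midbrain.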

How the data were processed

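The authors deposited log2 expression values, 1 column per array, for 45101 Affymetrix probe sets on 18 arrays; per the submitters' processing notes they were made with RMA (version not given in the sources used here), which corrects background, quantile-normalizes arrays and summarizes probes. Quantile normalization is meant to pull arrays to 1 distribution, so that a shift shared by most genes may be hidden, and RMA compresses low signals. The deposited values of the compared arrays did not share 1 distribution. Interquartile ranges were 3.38 in cortex and 3.37 in midbrain on replicate 2, and 3.59 to 3.61 on the others. A second quantile normalization raised the count of called genes from 5198 to 6420. The cause of the unequal spread was not tested. RNA was total RNA from dissected tissue, per the labels. Probe sets were named from the platform annotation: 34958 had 1 gene, 932 several and 9211 were not listed. Genes took the probe set with the highest mean over all arrays. Signal over background is not given per probe, so 5.17 stood in for it, and 3 arrays per region limit the precision.

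Midbrain and cortex were compared with limma 3.58.1 in R 4.3.3 (lmFit, then eBayes with an intensity trend; moderated standard errors), after a check on simulated data. Adjusted p is Benjamini-Hochberg over 11594 genes. Same-numbered arrays of the regions deviated together (correlations of deviations 0.23, 0.36 and 0.255, against -0.278 to 0.064 for the others). The labels count 3 saline animals but do not state which arrays share one. A shared animal and shared processing of same-numbered arrays cannot be told apart. The main fit, which gave the printed SEs and p-values, was unpaired, and the fit with the replicate number as a block was an alternative. Other alternatives were other filters, a second quantile normalization, median centring, probe set means, no trend, robust variances, array weights, the 9 saline or all 18 arrays for the spread, and leaving out each array. Named genes are the 15 largest called differences each way (predicted genes passed over), up to 8 called members of a list, cell type markers, and members not called given as values. The members and the 40 gene lists were chosen with earlier results of these data known; 3 lists of neighbouring tissue and the fit without replicate 2 of both regions were added after the data were seen. MPTP arrays were left out of every difference. Promoter windows are RefSeq's, on GRCm38.p6.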

Additional observations from a re-analysis of the deposited data

How the results depend on the processing

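The count of 5198 called genes stayed within 1.5 times under each alternative run, from 3820 with the filter at the 75th percentile, which tests fewer genes, to 6579 with array weights. With the replicate number as a block, the pairing raised it to 6572, and 5196 of the 5198 genes were shared. Beyond the changes named beside the results, the block ended no call of a named gene. Leaving out 1 array gave 4402 to 5755 calls. With the 75th percentile filter, 24 list counts moved by over 1.5 times. Values near 0 turned their sign, and were not called unless noted. Glrb was -0.0090 after median centring. As means of their probe sets Cux1 was -0.2235 and Sox6 -0.0308. With array weights C1qa was 0.0089 and Fos 0.0753. Without replicate 2 of both regions, chosen after seeing the data, C1qa was 0.0188 and Cdhr1 -0.0240. Over the fits that leave out 1 array, values turned sign for Cdhr1 (-0.3110 to 1.0039, called at the high end), Cryl1 (-1.0474 to 0.7047, called at both ends), Glrb (-0.0750 to 0.1125), Nr4a2 (-0.2530 to 0.0121), Fos (-0.3650 to 0.0423, called at the low end) and C1qa (-0.1027 to 0.0191). The causes were not tested. Genes below 5.17 in both regions were not compared.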

Other observations

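Genes outside the lists were chosen after their values were seen and are given as values of the same fit (limma, adjusted over all tested genes). Rin1 (-3.55, lower by at least 2.74), Tiam2 (-3.51) and Rasgrp1 (-3.28), which regulate small GTPases, were lower in midbrain. Rin1, a Ras effector of forebrain neurons, measured 4.78, 4.12 and 4.18 in midbrain and 7.79, 7.84 and 8.10 in cortex (adjusted p = 2.07e-20). Also lower were Rspo2, which strengthens Wnt signalling, at 4.14, 4.61 and 4.34 and 7.61, 7.62 and 7.51 (-3.22, SE 0.15, adjusted p = 6.23e-20, lower by at least 2.41), and Frzb (-3.12, lower by at least 2.21) and Dkk3 (-2.71), which belong to families of its antagonists. As means over all probe sets Rin1 differed by -2.28, Tiam2 by -1.68 and Rspo2 by -1.67. Ptk2b, the calcium-sensitive kinase PYK2, differed by -3.69 (SE 0.12, adjusted p = 2.24e-24), and the clock-related factor Npas2 by -2.73.

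Higher in midbrain outside the lists were Klhl1 (3.20, SE 0.14, adjusted p = 3e-21, at least 3.14), the transcription factors Zfhx3 (3.09), Pbx3 (2.80) and Tfap2d (2.45, at least 1.98), and Tacr3, the neurokinin B receptor, at 7.38, 7.35 and 7.24 in midbrain and 4.23, 4.70 and 4.03 in cortex (3.01, SE 0.16, adjusted p = 3.42e-18, at least 2.16). Its ligand gene Tac2 was lower in midbrain (-1.61). Anln (2.89), St18 (2.21, at least 0.57) and Il33 (2.25), which oligodendrocytes are known to express, were higher, as was Sparc (2.79), a matrix protein of glia. As means over all probe sets Zfhx3 differed by 2.02 and Sparc by 1.81.

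Variation within a region was larger in midbrain. Of the tested genes, 114 ranged over at least 1 unit among the midbrain arrays and 26 among the cortical arrays. Of the 56 such midbrain genes that were highest on replicate 2, 49 were also highest on cortical replicate 2. Cryl1 was the widest of these, at 7.18, 10.68 and 8.54 in midbrain and 8.84, 9.46 and 8.41 in cortex, and was not called (difference -0.11). Its difference was 0.70 (adjusted p = 2.69e-08) without midbrain replicate 1, -0.35 (adjusted p = 0.0429) without cortical replicate 3 and -1.05 (adjusted p = 0.0104) without midbrain replicate 2.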
